A study of Mus musculus with 4 samples.

Results

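The 10 genes Hmox1, Slc40a1, Slc11a1, Fth1, Ftl1, Tfrc, Nfe2l2, Nqo1, Gclm and Txnrd1 cover the breakdown of heme, the uptake, storage and export of iron, and the antioxidant response controlled by NRF2. They were taken as the rows of the deposited expression table whose gene symbol equals one of these names, and all 10 were found among its 24346 rows. Expression had been measured by RNA-seq in bone marrow cells of wild-type C57BL/6 mice (C57BL/6J in the study's methods) aged 3 months, which the study calls bone marrow-derived mesenchymal stem/progenitor cells (mBMSCs). The cells were the adherent fraction of femoral marrow after nonadherent hematopoietic cells had been washed off. They were transfected with scrambled siRNA (siScr, n = 2) or with siRNA against Zbp1 (siZBP1, n = 2) using Lipofectamine RNAiMAX, and RNA was taken at 72 h, to ask what the loss of ZBP1, a sensor of Z-form nucleic acids, changes in these cells. No other allele or agent is given for either group. Which of the study's siRNAs against Zbp1 was used, and whether the 2 replicates of a group were separate cultures or animals, is not stated, so p-values measure the spread between these samples, which may be technical.

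Cells take up iron bound to transferrin through the transferrin receptor, store it inside ferritin shells built of heavy and light chains, and release it through ferroportin. Heme oxygenase frees further iron from heme, a task that macrophages of the marrow carry out on a large scale when they clear old red cells. When iron is scarce, iron regulatory proteins bind a hairpin in these transcripts, the iron-responsive element, which blocks translation when it lies in the 5′ UTR and stabilizes the transcript when it lies in the 3′ UTR. NRF2, the product of Nfe2l2, is held back by KEAP1 until oxidants or electrophiles release it, and then drives genes for glutathione synthesis, quinone reduction, thioredoxin reduction and heme breakdown from antioxidant response elements in their promoters.

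Values are FPKM, read fragments scaled to transcript length and to the number mapped, and summed to between 477974 and 492166 per sample. The number of reads is unknown. Relative depth was estimated from the most frequent ratio of values between samples, over genes under 0.3 FPKM in every sample. The estimate takes that ratio to mark equal read numbers. By it, the siScr libraries were 1.40 and 1.87 times and siZBP1 replicate 2 was 1.61 times as deep as siZBP1 replicate 1, the shallowest. Zbp1 itself was at 86.0 and 62.0 FPKM in siScr cells and at 11.5 and 11.6 FPKM in siZBP1 cells (log2 fold change -2.56, limma adjusted p = 0.00322). Of the markers that define mesenchymal stromal cells, Col1a1 stood at 3066 and 2520.1 FPKM in siScr cells, Pdgfrb at 46.2 and 42.5 FPKM and Pdgfra at 3.97 and 2.36 FPKM. Markers that define macrophages were also high in the cells carrying the mesenchymal label, with Cd68 at 712 and 743 FPKM, Csf1r at 467 and 470 FPKM and Adgre1 at 303 and 279 FPKM in siScr cells. Markers of erythroid cells, neutrophils, lymphocytes and endothelial cells were low. The erythroid list summed to between 0.740 and 1.44 FPKM with Gata1 and Slc4a1 at 0, the neutrophil list to between 7.21 and 10.9 FPKM with Elane and Mpo at 0, the lymphocyte list to between 4.74 and 6.81 FPKM, and the endothelial list to between 11.5 and 12.3 FPKM. The osteoclast list summed to between 135 and 153 FPKM, and of its 6 members tested Ctsk was lower and Atp6v0d2 and Itgb3 were higher in siZBP1 cells, beside 14.8% of all genes called lower and 13.5% called higher by the test described in the next paragraph. These genes were chosen after their values were seen, as was Cd4, the 1 lymphocyte marker tested, which was higher.

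In siZBP1 cells the transcript of NRF2 was lower. Among genes that NRF2 drives, Nqo1 and Gclm were lower, the heme oxygenase gene Hmox1 was higher, and thioredoxin reductase 1 did not pass the test. The endosomal metal transporter gene Slc11a1 was lower. No difference passed the test for either ferritin chain, the transferrin receptor or ferroportin. In numbers, limma on log2(FPKM + 1), with p-values adjusted over the 11959 genes with a mean of at least 1 FPKM, called 4 of the 10 genes lower and 1 higher at an adjusted p under 0.05, and 5 passed in neither direction. Over all genes tested, 14.8% were called lower and 13.5% higher. Their log2 fold changes had a median of 0.023, beside 0.0045 over all genes. By the ratio of group means, 3 of the 10 were over 1.5-fold lower (Nqo1, Nfe2l2 and Gclm) and 0 over 1.5-fold higher, where 13.8% and 10.7% of the 16281 genes with both means above 0 passed. That share includes genes near 0. Under a minimum mean of 1 FPKM, which all 10 genes reach, 1035 genes were over 1.5-fold lower and 503 higher. Both siZBP1 values lay below both siScr values for 4 of the 10 genes and above them for 3, beside 33.7% and 34.7% of all genes tested. For any one gene, exact permutation of 2 and 2 samples has 0.333 as its smallest two-sided p, so the calls depend on limma's pooling of variance across genes.

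**Figure D1:**
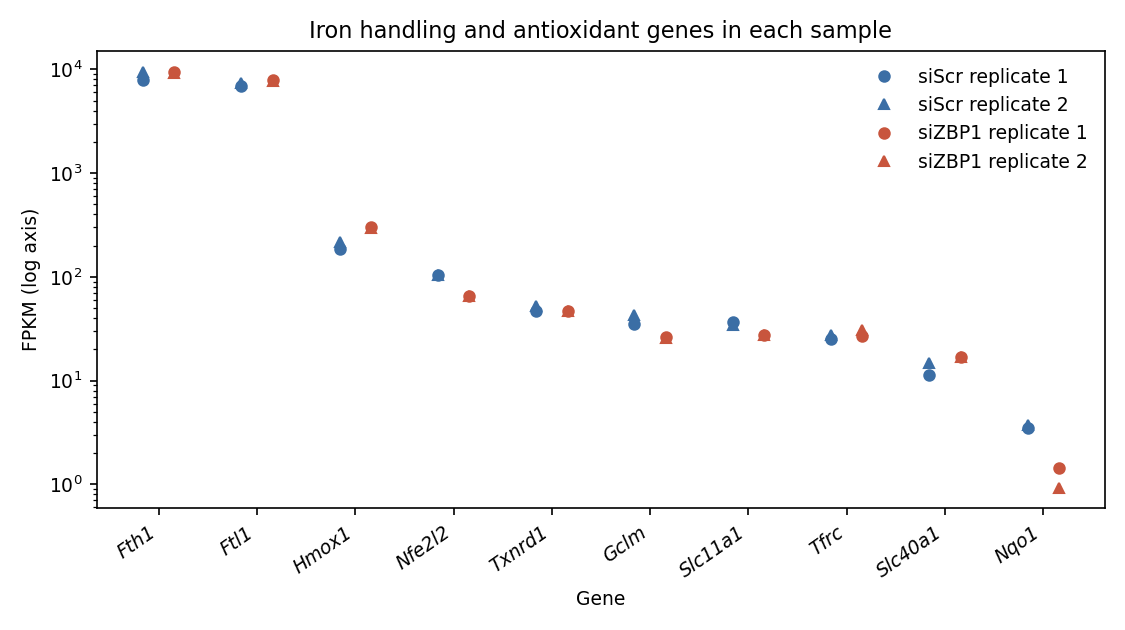
Expression in FPKM, on a log axis, of the 10 genes in each of the 4 samples, ordered by level, with siScr in blue, siZBP1 in red, replicate 1 as circles and replicate 2 as triangles. The ferritin genes Fth1 and Ftl1 lie between 6957 and 9536 FPKM in every sample, and Nqo1, the lowest, lies between 0.927 and 3.70 FPKM.

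The 10 genes spanned levels from a few FPKM to the top of the table. In both groups the order ran from Fth1 and Ftl1 over Hmox1, Nfe2l2 and Txnrd1 to a middle set, and then to Slc40a1 and Nqo1. In the middle set, the siScr values of Gclm (35.5 and 42.8 FPKM) and Slc11a1 (36.4 and 34.0 FPKM) overlapped, so that these neighbours did not differ beyond their spread, and both stood above Tfrc. In siZBP1 cells Slc11a1 and Tfrc overlapped and Gclm lay below both.

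**Figure D2:**
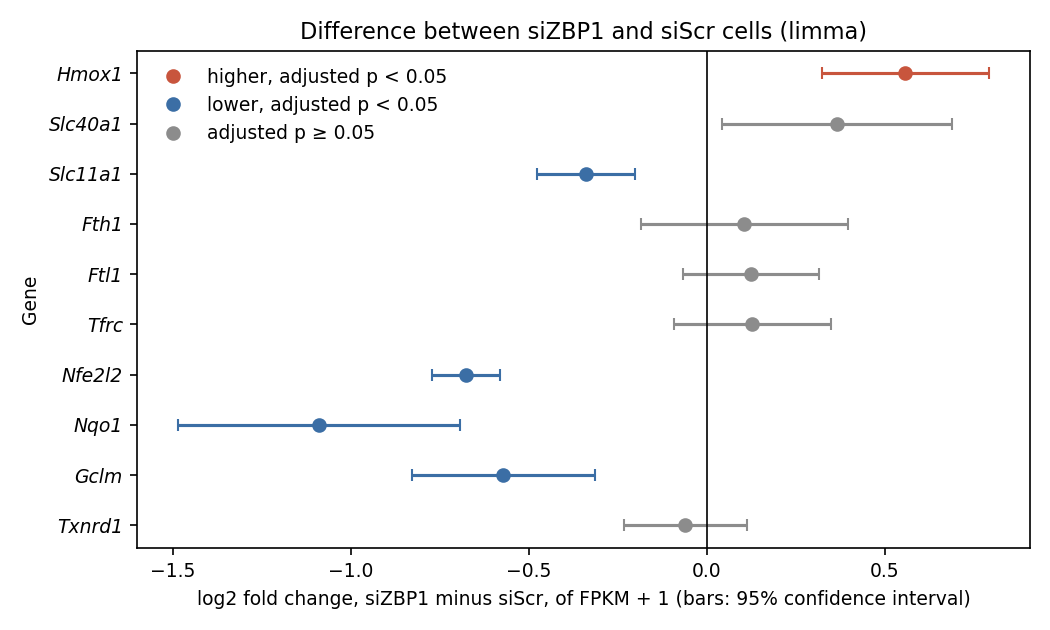
Log2 fold change of FPKM + 1, siZBP1 minus siScr, from limma for each of the 10 genes, with bars for the 95% confidence interval and colour for the call at an adjusted p of 0.05. Hmox1 lies at 0.56 and Nqo1 at -1.09, while the intervals of Fth1, Ftl1, Tfrc and Txnrd1 include 0.

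Among the genes of heme and iron recycling, Hmox1 was higher in siZBP1 cells. Hmox1 encodes the inducible heme oxygenase, which opens the heme ring and frees its iron, and lies at chr8:75093621-75100589 (GRCm38, plus strand). It was at 184 and 218 FPKM in siScr cells and at 299 and 292 FPKM in siZBP1 cells. Both siZBP1 values stood above both siScr values, and the siScr replicates lay further apart than the siZBP1 replicates. The mean went from 201 ± 24.3 FPKM to 296 ± 4.67 FPKM (SD, n = 2 each), a ratio of 1.47, which is under the 1.5-fold criterion. The log2 fold change was 0.56 with a standard error of 0.089 and a 95% confidence interval from 0.32 to 0.79 (limma adjusted p = 0.0161). Without siZBP1 replicate 1 the limma adjusted p was 0.129, and without siZBP1 replicate 2 it was 0.104.

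Slc40a1 encodes ferroportin, the exporter that releases iron from cells, and lies at chr1:45908068-45926523 on the minus strand. It was at 11.4 and 14.7 FPKM in siScr cells and at 16.9 and 17.0 FPKM in siZBP1 cells. Both siZBP1 values were the higher ones, but the gap to the nearer siScr value was smaller than the distance between the siScr replicates. The mean was 13.0 ± 2.31 FPKM in siScr cells and 17.0 ± 0.0287 FPKM in siZBP1 cells. The log2 fold change of 0.36 (SE 0.12, 95% confidence interval 0.04 to 0.69) did not pass the threshold (limma adjusted p = 0.0911). It passed without siScr replicate 2 (0.53, limma adjusted p = 0.0222) and in a fit without microRNA and small nucleolar RNA genes (limma adjusted p = 0.0478).

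Slc11a1 encodes NRAMP1, which carries iron and manganese out of the phagosomes of macrophages, and lies at chr1:74375195-74386062 on the plus strand. It was at 36.4 and 34.0 FPKM in siScr cells and at 27.5 and 27.7 FPKM in siZBP1 cells. Both siZBP1 values were below both siScr values. The mean went from 35.2 ± 1.68 FPKM to 27.6 ± 0.136 FPKM, which is 1.28-fold lower (log2 fold change -0.34, SE 0.052, 95% confidence interval -0.48 to -0.20, limma adjusted p = 0.0149). The limma adjusted p was 0.0502 without siScr replicate 1, 0.122 without siZBP1 replicate 1 and 0.103 without siZBP1 replicate 2.

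These 3 genes are well known from macrophages, and the markers of macrophages moved between the groups. The 29 genes of the macrophage list summed to 14402.5 and 15520.5 FPKM in siScr cells and to 20742.9 and 19914.7 FPKM in siZBP1 cells, a ratio of 1.36, or 1.25 without Lyz2, the gene with the largest difference. Of the 28 tested, 18 were called higher and 0 lower, beside 13.5% and 14.8% of all genes, at a median of 0.39 on the log2 scale, and none of the 29 was at 0 in every sample. Without 1 library at a time, the number called higher ranged from 0 to 18. Among the defining markers, Csf1r rose from 467 and 470 FPKM to 584 and 558 FPKM (limma adjusted p = 0.0147) and Cd68 from 712 and 743 FPKM to 890 and 851 FPKM (limma adjusted p = 0.0247). For the others the test was not passed, with Adgre1 at 313 and 320 FPKM, Spi1 at 155 and 159 FPKM and Ptprc at 82.7 and 88.0 FPKM in siZBP1 cells. In bulk samples such as these, a different number of cells of one type and a different amount of RNA per cell cannot be told apart.

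Set against that sum, in a comparison chosen after the values had been seen, the genes of recycling parted. Hmox1 amounted to 12.8 and 14.1 FPKM per 1000 FPKM of macrophage markers in siScr cells and to 14.4 and 14.7 in siZBP1 cells, a ratio of 1.08. Slc40a1 amounted to 0.792 and 0.946 in siScr cells and to 0.817 and 0.853 in siZBP1 cells, so that the groups overlapped. Slc11a1 was at 2.53 and 2.19 in siScr cells and at 1.33 and 1.39 in siZBP1 cells on the same scale, a ratio of 0.576. Without Lyz2 in the sum, the ratios were 1.17 for Hmox1, 1.04 for Slc40a1 and 0.626 for Slc11a1. Because the sum itself was higher in siZBP1 cells, a gene with equal FPKM in both groups would stand near 0.736, or 0.798 without Lyz2. Genes that did not pass the test also fell on the scale of the full list, with ratios of 0.705 for Txnrd1, 0.790 for Fth1, 0.802 for Ftl1 and 0.809 for Tfrc. The defining macrophage markers had ratios from 1.09 for Adgre1 to 1.22 for Csf1r, under the 1.36 of the sum. On the mesenchymal list described below, the ratios were 2.10 for Hmox1, 1.85 for Slc40a1 and 1.13 for Slc11a1. Without Col1a1 in that list they were 1.61, 1.42 and 0.866. A gene with equal FPKM would stand near 1.45 there, or 1.11 without Col1a1. The part of the macrophage markers in the differences of these 3 genes was not tested.

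**Figure D3:**
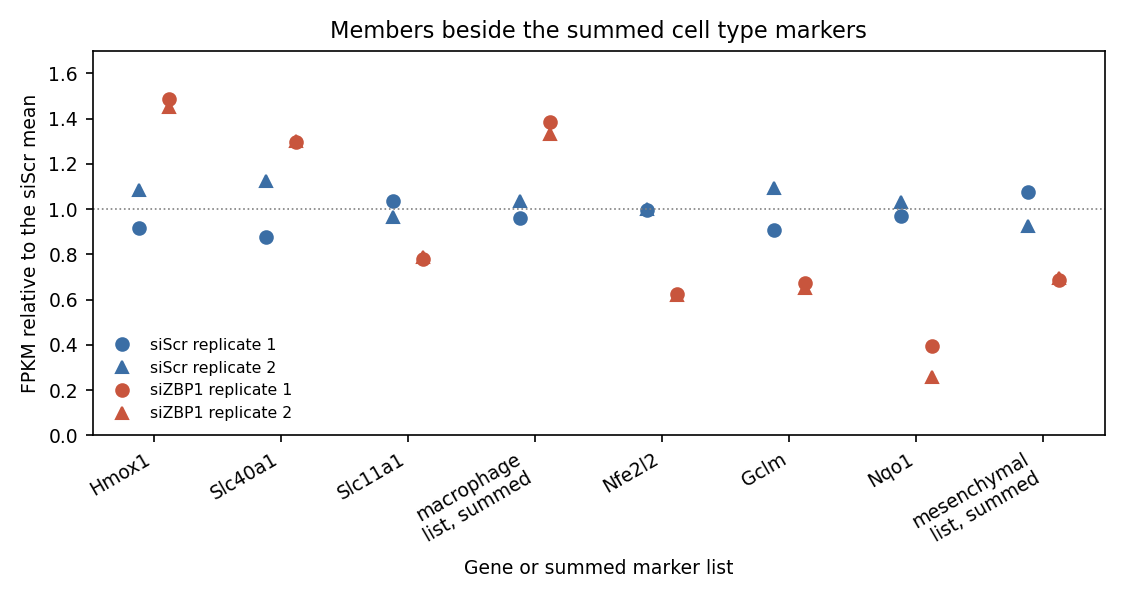
FPKM of 6 of the genes and of the summed macrophage and mesenchymal marker lists in each sample, relative to the mean of the siScr samples, with siScr in blue and siZBP1 in red. Hmox1 and the macrophage list both stand above 1 in siZBP1 cells, with ratios of means of 1.47 and 1.36, and Slc11a1, Nfe2l2, Gclm, Nqo1 and the mesenchymal list stand below 1.

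Iron storage, uptake and export are tied together by the iron-responsive element, a hairpin whose loop begins with CAGUG. The element was searched for as CAGTGN between 2 arms of 5 bases that pair with each other, G-U pairs allowed, with a C before the first arm, on the sense strand of GENCODE M21 transcripts (GRCm38). A match was found in the 5′ UTR of Slc40a1, Fth1 and Ftl1 and at 4 places in the 3′ UTR of Tfrc. Of 21877 coding genes, 0.142% held a match in a 5′ UTR and 0.59% in a 3′ UTR. The matches are printed as RNA, 5′ to 3′, with the 6 bases of the loop in capitals, because they show which of the genes share the element and on which side of the coding sequence it lies. A match is a description of these letters and not a measurement of binding.
Slc40a1 5′ UTR, chr1:45925465-45925493, minus strand: caacuucagcuaCAGUGUuagcuaaguuu
Fth1 5′ UTR, chr19:9982732-9982760, plus strand: uuccugcuucaaCAGUGCuugaacggaac
Ftl1 5′ UTR, chr7:45459779-45459807, minus strand: gucuugcuucaaCAGUGUuugaacggaac
Tfrc 3′ UTR, chr16:32631219-32631247, plus strand: aauuaucggaagCAGUGCcuuccauaauu
Tfrc 3′ UTR, chr16:32631598-32631626, plus strand: cauuaucgggagCAGUGUcuuccauaaug
Tfrc 3′ UTR, chr16:32631663-32631691, plus strand: cuauaucggagaCAGUGAucuccauaugu
Tfrc 3′ UTR, chr16:32631710-32631738, plus strand: aauuaucgggaaCAGUGUuucccauaauu

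**Figure D4:**
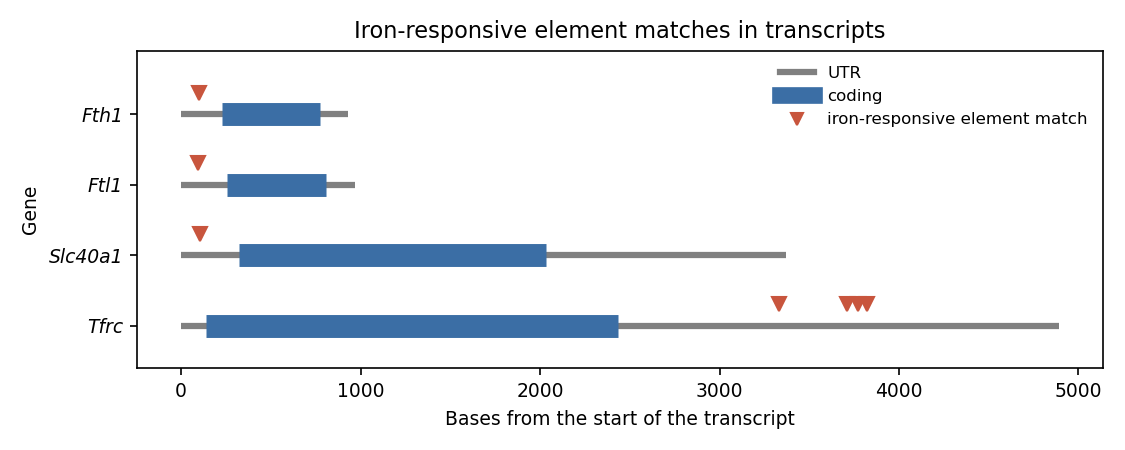
Transcripts of Fth1, Ftl1, Slc40a1 and Tfrc drawn to scale in bases from their start, with UTRs as thin grey lines, coding sequence as blue bars and matches to the iron-responsive element as red triangles. The single match starts at base 93, 84 and 96 of the Fth1, Ftl1 and Slc40a1 transcripts, before the coding sequence, and the 4 matches of Tfrc start between bases 3321 and 3812 of 4890, after it.

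The ferritin transcripts, which carry the element in front of their coding sequence, were among the most abundant in every sample. Fth1 encodes the heavy chain, which oxidizes iron for storage, and lies at chr19:9980598-9985098. It was at 7915 and 9536 FPKM in siScr cells and at 9459 and 9234 FPKM in siZBP1 cells. The groups overlapped, and siScr replicate 2 was the highest of the 4 samples. The mean was 8726 ± 1146 FPKM in siScr cells and 9347 ± 160 FPKM in siZBP1 cells (log2 fold change 0.11, SE 0.11, 95% confidence interval -0.19 to 0.40, limma adjusted p = 0.523). The sign depended on the settings: the log2 fold change was -0.12 after quantile normalization and -0.029 without siScr replicate 1, and 0.24 without siScr replicate 2, where it passed (limma adjusted p = 0.0368).

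Ftl1 encodes the light chain, which helps to seed the iron core, and lies at chr7:45457944-45459884 on the minus strand. It was at 6957 and 7460.2 FPKM in siScr cells and at 7984 and 7724 FPKM in siZBP1 cells. Both siZBP1 values stood above both siScr values, by less than the distance between the siScr replicates at the nearest pair. The log2 fold change of 0.12 (SE 0.072, 95% confidence interval -0.07 to 0.32) did not pass (limma adjusted p = 0.266) and was -0.13 after quantile normalization. The heavy to light chain ratio of FPKM was 1.14 and 1.28 in siScr cells and 1.18 and 1.20 in siZBP1 cells, with means of 1.21 ± 0.0993 and 1.19 ± 0.00749. The difference in the ratio, -0.018, was smaller than the spread between the siScr replicates (exact permutation test, two-sided p = 1). Together both chains made up 3.02% and 3.56% of the FPKM sum in siScr cells and 3.61% and 3.54% in siZBP1 cells. Ferritin genes have many processed copies in the mouse genome. How reads shared with such copies were counted is not stated, so these levels are uncertain, and Fthl17, the 1 further row with a ferritin chain symbol, was listed at 0 in all samples.

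Tfrc encodes the transferrin receptor, which brings transferrin-bound iron into the cell, and lies at chr16:32608920-32632794. It was at 25.3 and 27.5 FPKM in siScr cells and at 27.1 and 30.9 FPKM in siZBP1 cells, and the groups overlapped. The log2 fold change was 0.13 (SE 0.084, 95% confidence interval -0.09 to 0.35, limma adjusted p = 0.317). Among the genes of the opening list, 4 held a match to the iron-responsive element. None of these 4 was called in either direction in the fit of all samples and all genes tested. Matches outside the opening list were not given by gene, so the calls of other genes with the element were not compared. An element in front of the coding sequence acts on translation, which transcript levels do not measure.

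The largest falls among the 10 were those of the antioxidant genes Nqo1, Nfe2l2 and Gclm. Nfe2l2 encodes NRF2, the transcription factor of the antioxidant response, and lies at chr2:75675513-75704641 on the minus strand. It was at 104 and 105 FPKM in siScr cells and at 65.1 and 64.8 FPKM in siZBP1 cells. The replicates of each group were nearly equal, and the groups were far apart. The mean went from 104 ± 0.356 FPKM to 64.9 ± 0.226 FPKM, 1.61-fold lower (log2 fold change -0.68, SE 0.036, 95% confidence interval -0.77 to -0.58, limma adjusted p = 0.00264). Without siZBP1 replicate 1 the limma adjusted p was 0.0614 and without siZBP1 replicate 2 it was 0.0505.

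Nqo1 encodes the quinone reductase that is the standard reporter gene of NRF2 activity, and lies at chr8:107388225-107403206 on the minus strand. It was the lowest of the 10, at 3.48 and 3.70 FPKM in siScr cells and at 1.42 and 0.927 FPKM in siZBP1 cells. Both siZBP1 values were below both siScr values. The mean went from 3.59 ± 0.155 FPKM to 1.17 ± 0.349 FPKM, 3.06-fold lower by the ratio of means. On the log2(FPKM + 1) scale, which understates changes of low genes, the log2 fold change was -1.09 (SE 0.15, 95% confidence interval -1.48 to -0.69, limma adjusted p = 0.0114). It was -1.56 with 0.1 added to the FPKM and -0.48 with 5 added, past the threshold both times. The limma adjusted p was 0.0546 without siScr replicate 1, 0.0641 without siZBP1 replicate 1 and 0.0686 without siZBP1 replicate 2.

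Gclm encodes the modifier subunit of glutamate-cysteine ligase, the enzyme that sets the pace of glutathione synthesis, and lies at chr3:122245557-122270732 on the plus strand. It was at 35.5 and 42.8 FPKM in siScr cells and at 26.2 and 25.5 FPKM in siZBP1 cells. Both siZBP1 values were below both siScr values. The mean went from 39.1 ± 5.17 FPKM to 25.9 ± 0.513 FPKM, 1.51-fold lower (log2 fold change -0.57, SE 0.097, 95% confidence interval -0.83 to -0.31, limma adjusted p = 0.0186). Without siZBP1 replicate 1 the limma adjusted p was 0.126 and without siZBP1 replicate 2 it was 0.118. The catalytic subunit of the same enzyme, Gclc, a gene chosen after its values were seen, was at 11.1 and 12.2 FPKM in siScr cells and at 9.21 and 10.1 FPKM in siZBP1 cells and did not pass (limma adjusted p = 0.0867).

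Txnrd1 encodes the cytosolic thioredoxin reductase and lies at chr10:82833951-82897712 on the plus strand. It was at 46.4 and 51.9 FPKM in siScr cells and at 46.9 and 47.1 FPKM in siZBP1 cells. Both siZBP1 values lay between the siScr values. The log2 fold change was -0.06 (SE 0.065, 95% confidence interval -0.23 to 0.11, limma adjusted p = 0.538) and 0.019 without siScr replicate 2. Its interval does not reach the log2 fold change of Nfe2l2, Nqo1 or Gclm.

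Leaving out a siZBP1 replicate left that group with 1 sample, which limma then takes to vary as the siScr samples do. In these fits the calls over all genes dropped to as few as 48 lower and 22 higher. None of the 5 called genes passed in either of the fits, although each kept its direction. With all 4 samples, the 5 calls were kept under every other normalization, filter, pseudocount and variance model tried, in 54 of 54 values, where Nqo1 gave no value under a minimum mean of 5 FPKM.

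The antioxidant response element was searched for in RefSeq promoters (GRCm38.p6, 250 bases before to 50 bases after a transcript start) as its core TGACNNNGC on both strands. Of 32851 promoters, 12.4% held a match. For 8 of the 10 genes the table held 12 promoters, and 3 of these matched, 1 each of Nfe2l2, Gclm and Txnrd1. The match in Txnrd1 was in 1 of 3 promoters, and it lay inside the gene as placed above, before an internal start. The windows of Slc11a1, Fth1, Ftl1, Tfrc and Nqo1 did not hold these letters, and Hmox1 and Slc40a1 had no promoter in the table. Sequence outside the windows was not searched, so a window without a match does not mean that the gene lacks the element. The matches are printed 5′ to 3′ on the strand of the gene with the core in capitals, to show that the letters are present both in genes that were lower and in Txnrd1, which did not pass the test. In Gclm and Txnrd1 the capitals are the reverse complement of the core.
Nfe2l2 promoter, bases 240 to 232 before the start, chr2:75704885-75704913, minus strand: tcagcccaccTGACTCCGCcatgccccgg
Gclm promoter, bases 134 to 126 before the start, chr3:122245413-122245441, plus strand: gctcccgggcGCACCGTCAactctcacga
Txnrd1 promoter, bases 92 to 84 before the start, chr10:82859104-82859132, plus strand: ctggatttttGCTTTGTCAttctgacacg

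Markers of mesenchymal stromal cells moved in the same direction as Nfe2l2, Nqo1 and Gclm. The 20 genes of that list summed to 6872 and 5909 FPKM in siScr cells and to 4381 and 4446 FPKM in siZBP1 cells, which is 1.45-fold lower. Most of that difference came from Col1a1, a collagen gene, and without it the list summed to 3805 and 3389 FPKM in siScr cells and to 3253 and 3255 FPKM in siZBP1 cells, a ratio of 0.905. Of 19 tested, 9 were called lower and 1 higher, beside 14.8% and 13.5% of all genes, with a median log2 fold change of -0.35. The 1 called higher was Nt5e, a gene chosen after its values were seen. Col1a1 fell to 1128 and 1191 FPKM, Pdgfrb to 33.0 and 32.0 FPKM and Prrx1 from 51.6 and 43.5 to 23.2 and 23.1 FPKM, while Pdgfra, at 1.72 and 1.31 FPKM, did not pass. No marker of the list was at 0 in every sample. Per 1000 FPKM of this list, Nfe2l2 amounted to 15.2 and 17.7 FPKM in siScr cells and to 14.9 and 14.6 in siZBP1 cells, a ratio of 0.896. Gclm overlapped between the groups on that scale, with a ratio of 0.946, and Nqo1 was at 0.507 and 0.627 in siScr cells and at 0.324 and 0.208 in siZBP1 cells, a ratio of 0.470. These values for Nfe2l2 and Gclm depended on Col1a1. Per 1000 FPKM of the list without Col1a1, both siZBP1 values lay below both siScr values for all 3 genes, with ratios of 0.685 for Nfe2l2, 0.725 for Gclm and 0.359 for Nqo1. Per 1000 FPKM of the macrophage list the same ratios were 0.457 for Nfe2l2, 0.488 for Gclm and 0.239 for Nqo1. A gene with equal FPKM in both groups would stand near 1.45 on the mesenchymal list, 1.11 without Col1a1 and 0.736 on the macrophage list. These scales were chosen after the values had been seen, and the part of the mesenchymal markers in the differences was not tested.

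The wider pathways were described with 5 lists of genes, chosen by function with earlier results of these data known. In each, calls in both directions occurred, and the medians lay near that of all genes. Each list is read against the 14.8% of all genes called lower and the 13.5% called higher. For the 26 genes of these lists that are named by rule in the following, 33 of 52 values kept their call without a siScr replicate and 1 of 52 without a siZBP1 replicate, and none reversed.

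**Figure D5:**
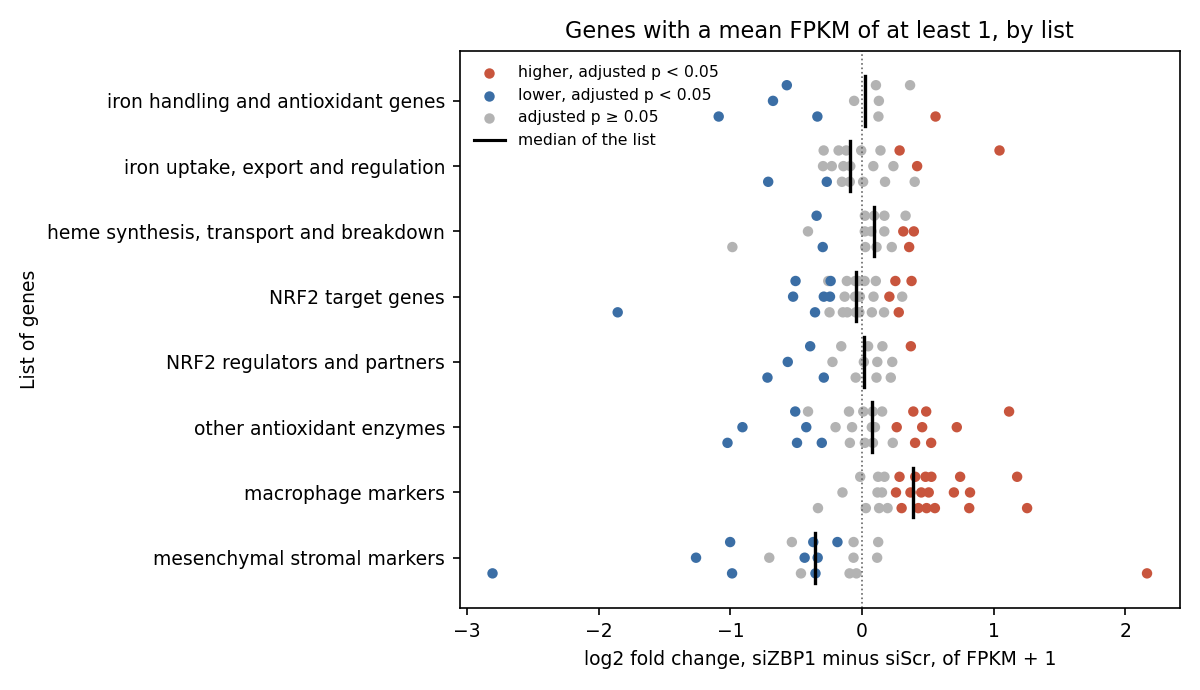
Log2 fold change of FPKM + 1, siZBP1 minus siScr, of each tested gene of the 10, of 5 pathway lists and of the macrophage and mesenchymal marker lists, with red for genes called higher, blue for genes called lower and a black bar at the median. The pathway medians lie between -0.09 and 0.09, that of the macrophage markers at 0.39 and that of the mesenchymal markers at -0.35.

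Of 21 tested genes for iron uptake, export and regulation, 2 were called lower and 3 higher (median log2 fold change -0.09). Slc22a17, a receptor for the siderophore-binding protein lipocalin 2, was the most changed, at 2.12 and 1.75 FPKM in siScr cells and at 6.14 and 4.11 FPKM in siZBP1 cells (log2 fold change 1.04, limma adjusted p = 0.0219). Slc11a2, which encodes the iron importer DMT1 of endosomes and a close relative of Slc11a1, rose from 19.0 ± 0.889 to 25.7 ± 1.13 FPKM (limma adjusted p = 0.0135), opposite in direction to Slc11a1. Ireb2, encoding an iron regulatory protein, rose from 24.7 and 25.2 FPKM to 31.7 and 29.6 FPKM (limma adjusted p = 0.0242). Steap2, a metalloreductase, fell from 4.90 ± 0.102 to 2.60 ± 0.175 FPKM (limma adjusted p = 0.0101). Ncoa4, the receptor that delivers ferritin to autophagosomes, fell from 57.2 ± 3.05 to 47.3 ± 0.788 FPKM (limma adjusted p = 0.0264).

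Of 17 tested genes for the synthesis, transport and breakdown of heme, 2 were lower and 3 higher (median 0.09). Those that rose included the other heme oxygenase and an enzyme of the step after it. Hmox2, the constitutive heme oxygenase, was at 49.3 and 53.8 FPKM in siScr cells and at 67.2 and 65.3 FPKM in siZBP1 cells (log2 fold change 0.36, limma adjusted p = 0.0161). Blvra, encoding biliverdin reductase A, was at 36.5 and 39.0 FPKM and then at 51.5 and 48.4 FPKM (log2 fold change 0.39, limma adjusted p = 0.0132). Blvrb, encoding biliverdin reductase B and named after its values were seen, moved the other way without passing. It was at 26.7 and 34.0 FPKM and then at 21.6 and 23.3 FPKM (log2 fold change -0.41, limma adjusted p = 0.0732). Ppox, an enzyme of heme synthesis, rose from 6.70 ± 0.438 to 8.56 ± 0.415 FPKM (limma adjusted p = 0.0488) and passed in 6 of 12 fits with all samples. Fech, encoding ferrochelatase, which inserts the iron in the last step of heme synthesis, fell from 22.1 ± 0.323 to 17.2 ± 0.435 FPKM (limma adjusted p = 0.0134). Slc48a1, encoding the heme transporter HRG1, fell from 74.0 ± 6.62 to 59.9 ± 2.40 FPKM (limma adjusted p = 0.0457) and passed in 8 of 12.

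Of 30 tested NRF2 target genes other than the 10, 7 were lower and 4 higher (median -0.05). Of the 30 log2 fold changes, 20 were below 0, beside 5883 of the 11959 genes tested. In the iron list 12 of 21 were below 0, and in the heme list 4 of 17. Among the NRF2 regulators it was 7 of 15, and among the other antioxidant genes 11 of 27. Gsta4, a glutathione transferase, had the largest fall of the list, from 3.69 and 2.71 FPKM to 0.106 and 0.202 FPKM (log2 fold change -1.86, limma adjusted p = 0.00529), and between -3.71 and -0.67 with other pseudocounts and settings. Ugdh, encoding UDP-glucose dehydrogenase, fell from 47.5 ± 1.13 to 32.8 ± 1.65 FPKM (limma adjusted p = 0.00666), and Mgst1, a microsomal glutathione transferase, from 56.0 ± 2.86 to 39.1 ± 1.58 FPKM (limma adjusted p = 0.00829). The other 4 lower genes, named after their values were seen, were Txn1, Sqstm1, Me1 and Srxn1. Those that rose included G6pdx, which makes NADPH in the opening step of the pentose phosphate pathway, from 47.7 ± 1.48 to 62.2 ± 1.44 FPKM (limma adjusted p = 0.00923). Ephx1, an epoxide hydrolase, rose from 82.2 ± 5.16 to 99.9 ± 5.57 FPKM (limma adjusted p = 0.0407), and Abcc3, an exporter of conjugates, from 29.4 ± 0.634 to 35.2 ± 1.20 FPKM (limma adjusted p = 0.0255). The remaining gene called higher was Pgd, the next NADPH-producing enzyme of the pentose phosphate pathway, also named after its values were seen.

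Of 15 tested regulators and partners of NRF2, 4 were lower and 1 higher (median 0.01). Nfe2l1, a relative of Nfe2l2, was at 89.4 and 85.0 FPKM in siScr cells and at 66.2 and 66.0 FPKM in siZBP1 cells (log2 fold change -0.39, limma adjusted p = 0.00768), beside -0.68 for Nfe2l2. Maff, a small MAF protein that pairs with NRF2 on DNA, fell from 4.76 ± 0.713 to 2.50 ± 0.477 FPKM (limma adjusted p = 0.0304), and Fyn, a kinase of the Src family, from 28.4 ± 1.23 to 18.9 ± 0.225 FPKM (limma adjusted p = 0.00583). The fourth was Sqstm1, an autophagy receptor that binds KEAP1 and stands on both NRF2 lists. Maf, a large MAF protein that is also prominent in macrophages, rose from 68.0 ± 3.83 to 88.2 ± 2.26 FPKM (limma adjusted p = 0.0137). The inhibitor gene Keap1 did not pass, at 20.7 and 21.0 FPKM in siScr cells and at 21.5 and 20.6 FPKM in siZBP1 cells (limma adjusted p = 0.870). Nor did Bach1, a repressor of Hmox1, at 25.3 and 21.7 FPKM and then at 19.7 and 20.1 FPKM (limma adjusted p = 0.117). Both were named after their values were seen.

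Of 27 other antioxidant genes, all of them tested, 6 were lower and 8 higher (median 0.07). The 8 include Txnip, whose product binds thioredoxin and is not itself an antioxidant (log2 fold change 0.39, limma adjusted p = 0.0202). It was named after its values were seen. The metallothioneins, small proteins that bind metals and scavenge radicals, rose together. Mt2 was at 81.6 and 70.9 FPKM in siScr cells and at 184 and 150.2 FPKM in siZBP1 cells (log2 fold change 1.12, limma adjusted p = 0.0074), and Mt1 at 173 and 189 FPKM and then at 298 and 298 FPKM (log2 fold change 0.72, limma adjusted p = 0.0040). Sepp1, encoding the selenium carrier selenoprotein P, rose from 379 ± 14.3 to 546 ± 18.8 FPKM (limma adjusted p = 0.00589). Gpx7, a peroxidase of the endoplasmic reticulum, fell from 16.5 ± 2.32 to 7.58 ± 0.832 FPKM (limma adjusted p = 0.00923), and Msrb3, a methionine sulfoxide reductase, from 30.5 ± 0.717 to 15.9 ± 2.34 FPKM (limma adjusted p = 0.00856). Txnrd3, a relative of Txnrd1, fell from 2.34 ± 0.158 to 1.35 ± 0.127 FPKM (limma adjusted p = 0.0382).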

How the data were processed

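The deposited table gives FPKM per gene symbol for 4 samples and the authors' group means, which equal the means of the replicates. The authors prepared TruSeq libraries, mapped reads to mm10 with TopHat and extracted FPKM with HTSeq as the methods state; Cufflinks is also named in the submitters' processing notes. The annotation is not given in the sources used here. Labels assign samples to groups.

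Log2(FPKM + 1) values were fitted with limma 3.58.1 in R 4.3.3, using a variance trend and keeping genes that averaged 1 FPKM or more across the 4 samples, and p-values were adjusted by Benjamini and Hochberg over 11959 genes at 0.05. The study's 1.5-fold criterion was computed from group means without a test. The fit was tested on simulated data. No reads are given, so no counting error was computed. Gene models came from GENCODE M21 (GRCm38) and promoters from RefSeq (GRCm38.p6). Tables and plots were made in Python 3.11.15 (pandas 2.3.3, matplotlib 3.10.9, scipy 1.17.1, numpy 2.4.6).

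The 10 genes, 5 pathway lists and 7 marker lists (macrophage, mesenchymal stromal, erythroid, osteoclast, neutrophil, endothelial, lymphocyte) were chosen with earlier results of these data known. By rule, the text names the 10 genes, up to 3 called genes with the largest rises and falls per pathway list, Zbp1, ferritin-like symbols and 5 defining macrophage markers. Alternatives were other pseudocounts, filters, scalings and variance models, a replicate block, a fit without small RNA genes, and each sample left out. Counts of macrophage markers under these alternatives, and marker sums without their most different gene, were added after seeing the data.

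Replicate numbers are shared between groups, but nothing says that they pair samples, and deviations of same-numbered samples from their group means correlated at -0.063 over genes.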

Additional observations from a re-analysis of the deposited data

How the results depend on the processing

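With all samples, the calls of Hmox1, Slc11a1, Nfe2l2, Nqo1 and Gclm were kept under every alternative, and those of the 26 genes named from the pathway lists were lost in 18 of 281 values; only Fth1 (-0.12) and Ftl1 (-0.13) changed sign, after quantile normalization, which moved the median of all genes to 0.043. Of the 10 genes, 2 were higher without small RNA genes. Iron genes called lower fell to 1 under a minimum mean of 5 FPKM and without the variance trend. Heme genes called lower were 1 with no filter, without the variance trend, after quantile normalization and after scaling to the sum without small RNA genes, and 4 without small RNA genes. Without the trend, 4 NRF2 targets were lower and 1 higher. NRF2 regulators called lower were 2 with no filter, and those called higher were 2 with robust moderation and without small RNA genes. Genes over 1.5-fold were 1035 lower and 503 higher under a minimum mean of 1 FPKM, and 937 and 407 with 1 added to both means. The causes were not tested.

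With the replicate number as a block, 1654 genes were lower and 1465 higher, 2 NRF2 regulators were higher, and Ppox (limma adjusted p = 0.0740) and Txnrd3 (limma adjusted p = 0.0655) were lost. The numbers are not known to pair samples. The block changed the call of none of the 10 genes.

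Without 1 sample at a time, 48 to 1467 genes were lower and 22 to 1248 higher; of the 10 genes, 0 to 4 and 0 to 3; of iron genes, 0 to 2 and 0 to 2; of heme genes, 0 to 2 and 0 to 3; of NRF2 targets, 0 to 7 and 0 to 2; of NRF2 regulators, 0 to 4 and 0 to 1; and of other antioxidant genes, 0 to 6 and 0 to 9. By the 1.5-fold criterion, 2074 to 2395 genes were lower and 1570 to 1889 higher, and of the 10 genes 2 to 3 and 0 to 1. The difference in the ferritin ratio lay between -0.088 and 0.052. The log2 fold change of Fth1 ran from -0.029 (without siScr replicate 1) to 0.24, and that of Txnrd1 from -0.14 to 0.019 (without siScr replicate 2). FPKM hold no read numbers, so counting error could not be separated from the spread of replicates.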
